A study of Mus musculus with 8 samples.

Results

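The genes described are the nuclear-encoded genes of oxidative phosphorylation in early mouse embryos. They were taken by symbol (names that begin with Nduf, Uqcr, Cox4 to Cox8 or Atp5, together with Sdha, Sdhb, Sdhc, Sdhd and Cyc1), which gave 95 of the 22667 listed genes. By role they were 7 core and 29 accessory subunits of complex I, 8 complex I assembly factors of the Ndufaf type, 4 subunits of complex II, 9 of complex III, 20 of complex IV and 16 of complex V. The last 2, Atp5s and the pseudogene Atp5l-ps1, belonged to none of these.

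Oxidative phosphorylation makes ATP in the inner mitochondrial membrane. Complexes I and II pass electrons to ubiquinone, complex III passes them on to cytochrome c, complex IV reduces oxygen, and complex V uses the proton gradient to make ATP. Most subunits are encoded in the nucleus, and a small set, absent only from complex II, is encoded by mitochondrial DNA. Cleavage-stage mouse embryos live on mitochondria inherited from the oocyte and use pyruvate as a main fuel. Stored oocyte mRNA is cleared and the embryonic genome switched on around the 2-cell stage.

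The embryos came from B6CBA F1 crosses and received, as 1-cell embryos, Snrpb and Snrpd2 mRNA together, Snrpb mRNA, Snrpd2 mRNA, or, as control, mRNA of the fluorescent protein mCherry. Snrpb and Snrpd2 encode Sm proteins of the spliceosome, and the series asks what raising them does at zygotic genome activation. Whole embryos were collected at the 2-cell stage (24 h after injection) or the 1-cell stage (5 h), and each of the 8 conditions was 1 library from a pool of 40 embryos of 3 experiments. Values below are deposited cRPKM levels (reads scaled by gene length and by library size). Within a stage they run in the order both mRNAs, Snrpb, Snrpd2 and mCherry, and a SD over 4 libraries is the spread across these 4 injections.

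The 8 libraries held 39492734 to 59979046 counted reads. The genes of interest took 0.250 to 0.318% of the reads at the 2-cell stage and 0.332 to 0.372% at the 1-cell stage. Snrpb was at 876.26 and 1704.01 cRPKM in the 2-cell libraries injected with it, against 17.40 cRPKM in 2-cell mCherry embryos, and Snrpd2 was at 4726.30 and 5239.86 cRPKM, against 10.56 cRPKM. In the injected 1-cell libraries Snrpb was at 11913.49 and 43849.91 cRPKM, against 7.96 cRPKM in 1-cell mCherry embryos. Snrpd2 was there at 9141.58 and 17926.25 cRPKM, against 1.89 cRPKM. The library totals behind cRPKM include the reads of these mRNAs. The summed level of 6 marker genes of the 2-cell stage was 763 to 1040 cRPKM in the 2-cell libraries and 9.98 to 13.3 cRPKM in the 1-cell libraries. The summed level of 8 oocyte genes was 4380 to 5280 cRPKM at the 2-cell stage and 5050 to 5790 cRPKM at the 1-cell stage, sums led by Dppa3. Of these 8 genes 6 were lower and 1 higher at the 2-cell stage (median log2 change -1.83). In whole embryos, fewer cells of a type and less RNA per cell cannot be told apart. Only polyadenylated RNA entered the libraries, and tail length was not measured.

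Upstream sequences are shown for 3 genes that moved in different directions between the stages and whose upstream bases hold no annotated exon. They are the 250 bases before the RefSeq start (GRCm38.p6), on the strand of the gene. Cox8a, the most abundant of these mRNAs at the 2-cell stage, lies at chr19:7217617-7217866 on the minus strand. Ndufaf1, with the largest rise in the stage test over all injections, lies at chr2:119662835-119663084 on the minus strand. Cox5a, which was lower at the 2-cell stage, lies at chr9:57520982-57521231 on the plus strand. Capitals mark a match, whole within the bases shown, to the ETS motif CCGGAAG, the core bound by the GABPA factor. The motif counts below use windows that run past the start. In its window Cox8a holds the ETS motif across the end of the bases shown and again after the start. Neither match is capitalised here, but Cox8a is counted below as holding the motif.
Cox8a: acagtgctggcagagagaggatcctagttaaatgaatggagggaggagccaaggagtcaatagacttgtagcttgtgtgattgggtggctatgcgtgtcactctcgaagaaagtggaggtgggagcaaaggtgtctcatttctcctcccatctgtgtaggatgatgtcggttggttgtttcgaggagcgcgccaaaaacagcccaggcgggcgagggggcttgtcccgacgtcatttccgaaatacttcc
Ndufaf1: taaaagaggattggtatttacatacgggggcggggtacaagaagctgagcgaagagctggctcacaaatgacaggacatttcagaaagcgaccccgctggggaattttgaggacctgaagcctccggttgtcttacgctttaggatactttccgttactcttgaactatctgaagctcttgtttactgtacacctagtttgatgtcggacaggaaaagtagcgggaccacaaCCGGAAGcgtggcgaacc
Cox5a: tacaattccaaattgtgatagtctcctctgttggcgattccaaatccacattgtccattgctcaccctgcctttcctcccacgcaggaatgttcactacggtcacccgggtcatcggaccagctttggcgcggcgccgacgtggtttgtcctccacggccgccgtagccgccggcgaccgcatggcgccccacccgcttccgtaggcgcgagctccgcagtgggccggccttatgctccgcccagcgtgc

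Levels differed widely within one machinery. At the 2-cell stage Cox8a had the highest mean, 592 ± 103 cRPKM (SD, n = 4), followed by the ATP synthase beta subunit gene Atp5b at 279 ± 17.5 cRPKM and by Cox6b2 at 269 ± 48.0 cRPKM. At the 1-cell stage Atp5b led with 284 ± 16.6 cRPKM, then Cox5a with 262 ± 8.76 and the alpha subunit gene Atp5a1 with 188 ± 8.93 cRPKM. In all, 46 members at the 2-cell stage and 51 at the 1-cell stage had a mean under 10 cRPKM. Many respiratory chain genes have processed pseudogenes, and how reads shared with such copies were counted is not given in the sources used here, so levels of single genes are uncertain to that extent.

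**Figure D1:**
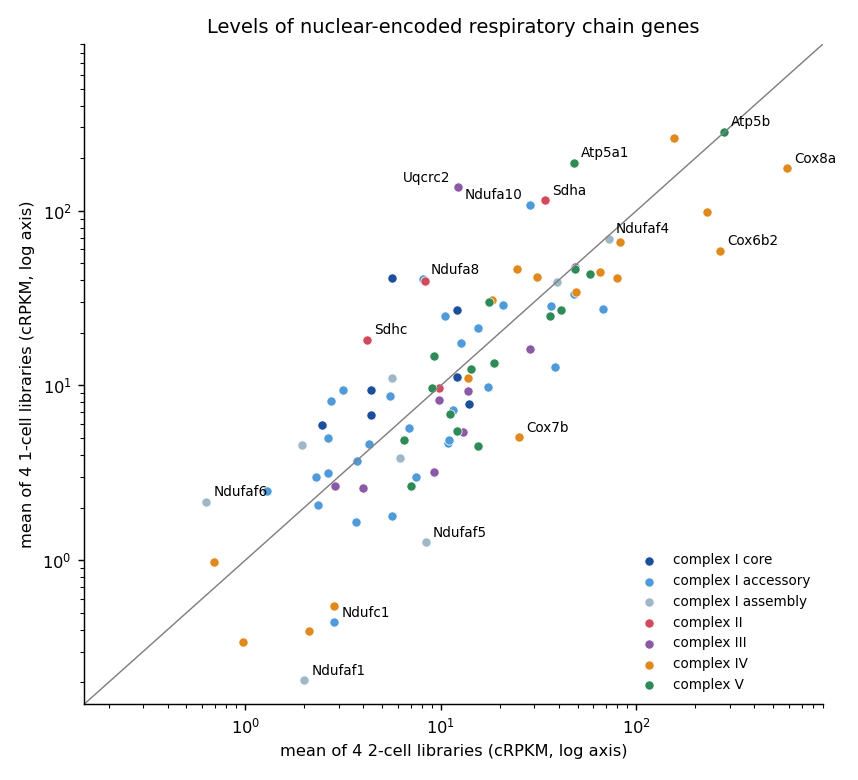
Mean level of each tested gene except Atp5s in the 4 2-cell libraries (horizontal, cRPKM, log axis) against the 4 1-cell libraries (vertical, cRPKM, log axis), coloured by complex, with the line of equal level. Uqcrc2, Sdha and Atp5a1 lie above the line (higher at the 1-cell stage), and Cox8a, Cox6b2, Ndufaf5 and Ndufaf1 below it.

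Between the stages these genes went both ways. Of 91 members that passed the filter on low counts, 26 were higher and 32 lower at the 2-cell stage (edgeR's quasi-likelihood test with terms for injection and stage, Benjamini-Hochberg adjusted p under 0.05 over 16264 genes). Of all genes tested, 38.1% were higher and 32% were lower. The called members' direction was the same in all 4 injections for each of the 58. The calls rest on these same 4 differences, so this is no separate check of them. The median log2 change of all 91 members was -0.07, against 0.15 for all genes, and it was 0.19 when libraries were scaled by their totals alone. No called member changed sign under the other scalings tried. All 4 2-cell libraries lay above all 4 1-cell libraries in cRPKM for 35 members (42.8% of all genes) and below them for 26 (24.8% of all genes). A change of at least 2-fold was seen for 16 higher and 23 lower members, against 29.4% and 19.7% of all genes.

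The complexes differed in which way their members went. Complex II stood lowest, with 3 of 4 subunits lower and none higher (median log2 change -2.19), and the complex I core followed, with 5 of 7 lower and 1 higher (median -1.36). Of the 29 complex I accessory subunits, 12 were lower and 8 higher (median -0.22). Complex IV had 7 of 17 higher and 4 lower (median 0.28). Complex III had 3 of 9 higher and 1 lower (median 0.30), and complex V had 4 of 16 in each direction (median 0.13). With centring in bins of gene length complex IV had 7 higher and 7 lower (median -0.22), complex III had 1 higher and 3 lower (median 0.05), and complex V had 2 higher and 5 lower (median -0.25). With library totals the median of the accessory subunits was 0.03. The medians of complex II and of the complex I core stayed below 0 under each of these scalings. No difference between complexes was tested.

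**Figure D2:**
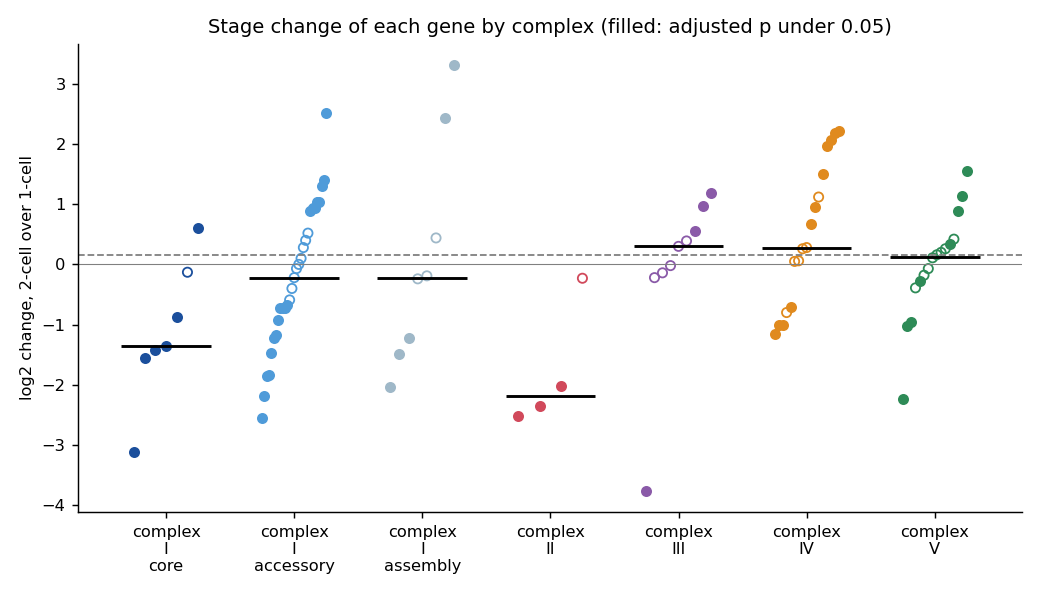
Log2 change of each tested gene except Atp5s, 2-cell over 1-cell, by complex (vertical axis). Filled points have an adjusted p under 0.05, black bars are medians, and the dashed line is the median of all genes tested, 0.15. The medians run from -2.19 for complex II to 0.30 for complex III.

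Summed levels per kilobase, which the abundant mRNAs dominate, showed the same for complexes II and IV and the complex I core. Complex IV mRNAs summed to 1490, 1370, 1990 and 1720 cRPKM in 2-cell embryos, against 903, 923, 947 and 900 cRPKM in 1-cell embryos, with no overlap. This rise was led by Cox8a, Cox6b2 and Ndufa4, with means of 592, 269 and 230 cRPKM, against 175, 59.1 and 98.9 cRPKM in 1-cell embryos. It was not shared across the complex. The median complex IV level was 22.7, 21.6, 28.6 and 26.6 cRPKM in 2-cell embryos, against 31.8, 28.4, 29.0 and 38.2 cRPKM in 1-cell embryos. Complex II mRNAs summed to 53.4, 54.5, 59.9 and 56.8 cRPKM in 2-cell embryos, against 177, 175, 177 and 201 cRPKM in 1-cell embryos. Every 2-cell library was lower than every 1-cell library. The complex I core summed to 50.2, 48.4, 61.3 and 60.8 cRPKM in 2-cell embryos, against 106, 101, 93.5 and 136 cRPKM in 1-cell embryos, again without overlap. Complex III went the other way from its median, with sums of 119 to 174 cRPKM in 2-cell embryos and 201 to 275 cRPKM in 1-cell embryos, of which its core proteins made up 13.7 to 20.2 and 121 to 160 cRPKM. Complex V sums overlapped, at 592 to 708 cRPKM in 2-cell embryos and 692 to 767 cRPKM in 1-cell embryos.

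**Figure D3:**
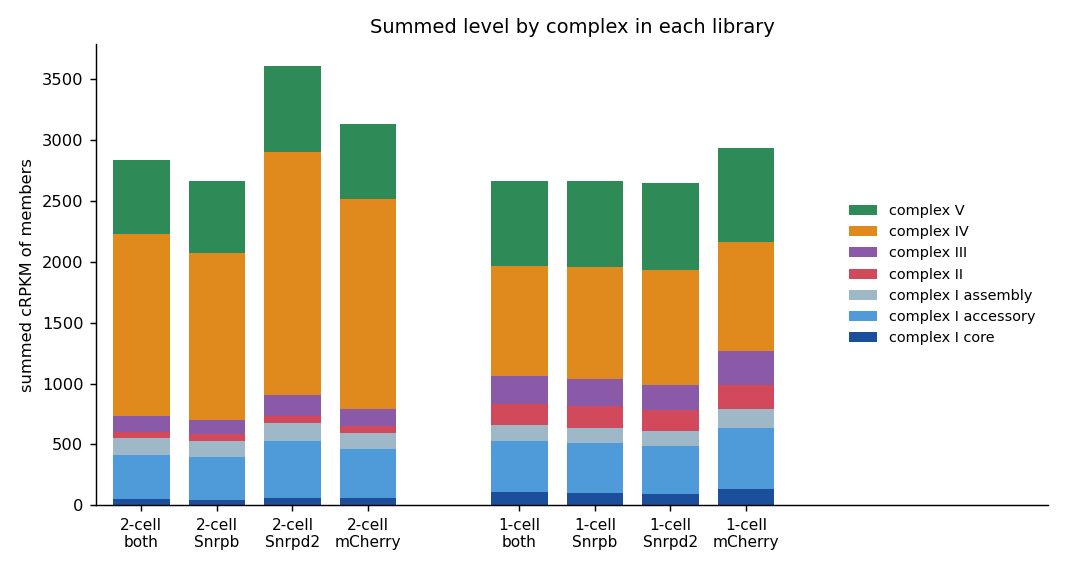
Summed cRPKM of the members of the complexes in each library (vertical axis), stacked by complex, with the 4 2-cell libraries left of the 4 1-cell libraries. The complex IV block is 1370 to 1990 cRPKM in 2-cell libraries and 900 to 947 cRPKM in 1-cell libraries, and the complex II block is 53.4 to 59.9 against 175 to 201 cRPKM.

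Within complex I, the core subunit genes carry the flavin and iron-sulphur centres. Ndufs7, an iron-sulphur subunit near the ubiquinone site, averaged 2.48 ± 1.09 cRPKM at the 2-cell stage and 5.91 ± 1.86 cRPKM at the 1-cell stage (2.94-fold lower, edgeR adjusted p = 0.000787). Ndufs1, Ndufs3 and Ndufv1 were lower too, by 2.58, 2.68 and 1.83-fold. Ndufs8, another iron-sulphur subunit, went the other way, at 14.0 ± 2.07 cRPKM in 2-cell embryos and 7.82 ± 2.32 cRPKM in 1-cell embryos (1.53-fold higher, edgeR adjusted p = 0.0109). This call was lost without the 2-cell Snrpd2, the 1-cell Snrpd2 or the 1-cell both-mRNA library (adjusted p = 0.0636, 0.0606 and 0.0557), and with length bins (adjusted p = 0.0632). Ndufv2, a subunit of the NADH-oxidising arm, averaged 12.1 ± 2.06 cRPKM at the 2-cell stage and 11.2 ± 2.58 cRPKM at the 1-cell stage and was not called (edgeR adjusted p = 0.435).

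Among the accessory subunits, which surround the core and serve its assembly and stability, Ndufa10, the most abundant when both stages were averaged, was lower at the 2-cell stage. It was at 25.81, 24.13, 34.48 and 30.12 cRPKM in 2-cell embryos, against 102.63, 110.35, 101.07 and 117.19 cRPKM in 1-cell embryos (4.54-fold, edgeR adjusted p = 2.5e-07). Ndufa8 was at 6.95, 7.04, 9.68 and 8.83 cRPKM in 2-cell embryos, against 38.57, 32.46, 32.20 and 59.00 cRPKM in 1-cell embryos (5.84-fold lower, edgeR adjusted p = 5.21e-07). In both genes each 2-cell value lay below each 1-cell value. Ndufc1 was the accessory subunit with the largest rise, at 2.85 ± 0.623 cRPKM in 2-cell embryos and 0.443 ± 0.224 cRPKM in 1-cell embryos (5.69-fold, edgeR adjusted p = 0.00012). Ndufv3 was 2.66-fold higher, and of the better expressed subunits Ndufb6 was 2.04-fold higher at 67.5 ± 8.58 cRPKM, against 27.5 ± 1.25 cRPKM in 1-cell embryos.

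The Ndufaf assembly factors, which help to build complex I and are not part of it, split in the same way, with 2 higher and 3 lower of 8. Ndufaf1 was at 2.62, 2.15, 1.82 and 1.41 cRPKM in 2-cell embryos, against 0.13, 0.12, 0.07 and 0.50 cRPKM in 1-cell embryos. It rose by 3.31 ± 0.55 (SE) on the log2 scale (9.90-fold, edgeR adjusted p = 0.00038), with 9, 10, 5 and 39 reads behind the 1-cell values. Ndufaf5, which modifies Ndufs7, was 5.41-fold higher, at 8.35 ± 1.68 cRPKM in 2-cell embryos and 1.27 ± 0.111 cRPKM in 1-cell embryos. Its groups did not overlap. Ndufaf6 was 4.09-fold lower at 0.632 ± 0.193 cRPKM, against 2.16 ± 0.610 cRPKM in 1-cell embryos, and Ndufaf3 was 2.80-fold lower. Ndufaf7 was 2.33-fold lower. The most abundant factor, Ndufaf4, averaged 72.2 ± 3.03 cRPKM in 2-cell embryos and 69.3 ± 10.6 cRPKM in 1-cell embryos and did not pass the test (edgeR adjusted p = 0.153). The spread of changes among the 8 factors, -2.03 to 3.31, thus lay within that of the 36 complex I subunits on its lower side and went beyond it on its upper side, where Ndufc1 stood at 2.51.

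Complex II is succinate dehydrogenase, which also serves the tricarboxylic acid cycle. Its flavoprotein gene Sdha was at 33.83, 34.06, 35.48 and 32.11 cRPKM in 2-cell embryos, against 112.70, 115.45, 118.51 and 112.42 cRPKM in 1-cell embryos (4.06-fold lower, edgeR adjusted p = 1.11e-07). The membrane anchor genes Sdhc and Sdhd were 5.15 and 5.74-fold lower. Sdhd was at 6.52, 6.81, 9.88 and 9.89 cRPKM in 2-cell embryos, against 37.76, 34.87, 33.10 and 52.82 cRPKM in 1-cell embryos. The iron-sulphur gene Sdhb was apart from the other 3, with 9.27, 9.43, 10.57 and 9.89 cRPKM in 2-cell embryos, against 9.54, 9.58, 8.33 and 11.11 cRPKM in 1-cell embryos (log2 change -0.23 ± 0.15 SE, edgeR adjusted p = 0.188). Its 2 groups overlapped. As levels per kilobase, Sdhb lay below the other 3 at the 1-cell stage, and above Sdhc and Sdhd on average at the 2-cell stage.

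In complex III one gene stood out. Uqcrc2, which encodes a core protein on the matrix side, was at 11.94, 11.61, 15.45 and 9.73 cRPKM in 2-cell embryos, against 134.21, 134.83, 119.11 and 157.84 cRPKM in 1-cell embryos. It fell by 3.76 ± 0.17 (SE) on the log2 scale (13.5-fold, edgeR adjusted p = 4.14e-08), the largest fold of any member. The 2-cell values of its partner core protein gene Uqcrc1 lay above the 1-cell values (log2 change 0.39), but it was not called (edgeR adjusted p = 0.133). Cyc1, the cytochrome c1 subunit, was 2.27-fold higher, at 9.58, 4.41, 13.16 and 9.55 cRPKM in 2-cell embryos, against 3.71, 3.12, 2.92 and 2.96 cRPKM in 1-cell embryos. The small subunit genes Uqcr11 and Uqcr10 were 1.96 and 1.46-fold higher, but with length bins neither was called (log2 change 0.47 and 0.05, edgeR adjusted p = 0.0632 and 0.807). The Rieske protein gene Uqcrfs1 was not called (log2 change 0.30, edgeR adjusted p = 0.127).

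The most abundant of the mRNAs that rose belonged to complex IV. Cox8a was at 521.36, 501.71, 725.22 and 621.36 cRPKM in 2-cell embryos, against 181.06, 180.54, 209.50 and 128.61 cRPKM in 1-cell embryos (2.84-fold higher, edgeR adjusted p = 1.07e-05). Ndufa4, a subunit named for complex I and now assigned to complex IV, was 1.93-fold higher at 230 ± 39.3 cRPKM, against 98.9 ± 10.2 cRPKM in 1-cell embryos. Cox7b was 4.17-fold higher and Cox7a2 1.59-fold higher, without overlap of the stages. Cox7c was 4.53-fold higher on 15 to 31 reads in 2-cell libraries and 2 to 8 reads in 1-cell libraries, and the call was lost without either Snrpb library or either Snrpd2 library (adjusted p 0.0532 to 0.102). Going the other way, Cox5a was at 136.79, 141.70, 171.69 and 173.62 cRPKM in 2-cell embryos, against 254.72, 274.30, 256.95 and 261.21 cRPKM in 1-cell embryos (2.02-fold lower, edgeR adjusted p = 2.99e-05). Cox4i1, a regulatory subunit, was 2.02-fold lower, and Cox7a2l, a factor for respiratory supercomplexes, 2.23-fold lower. Cox5b was 1.63-fold lower, with overlapping stages, and was not called with library totals (edgeR adjusted p = 0.0647).

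Several complex IV subunits have a second gene that is expressed in few adult tissues, and 1 of these, Cox6b2, known from testis, was among the most abundant mRNAs here. Cox6b2 was at 246.09, 219.98, 331.35 and 278.82 cRPKM in 2-cell embryos, against 59.20, 59.75, 81.67 and 35.75 cRPKM in 1-cell embryos (3.90-fold higher, edgeR adjusted p = 7.19e-06). Its broadly expressed partner Cox6b1 averaged 49.3 ± 8.90 cRPKM at the 2-cell stage and 34.1 ± 5.08 cRPKM at the 1-cell stage (edgeR adjusted p = 0.112). Per kilobase, Cox6b2 therefore made up 84.3 to 84.7% of the pair in all 4 2-cell libraries. At the 1-cell stage its part was 62.9, 67.6 and 71.6% in the Sm-injected libraries and 46.8% in the mCherry library.

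Other second genes were lower than their partners throughout. Cox8c, also known from testis, was 4.62-fold higher at 2.11 ± 0.533 cRPKM in 2-cell embryos, against 0.392 ± 0.180 cRPKM in 1-cell embryos, and stayed under 0.4% of the Cox8a and Cox8c pair. Cox6a2, known from heart and skeletal muscle, averaged 13.7 ± 1.71 cRPKM at the 2-cell stage and 11.1 ± 1.91 cRPKM at the 1-cell stage, 15.7 to 21.1% of its pair with Cox6a1. It was not called (log2 change 0.06, edgeR adjusted p = 0.781), and its sign turned (-0.44) when libraries were centred within bins of gene length. Cox4i2, known from lung, was at 0.45 to 1.38 cRPKM in 2-cell embryos and 0.30 to 0.42 cRPKM in 1-cell embryos (edgeR adjusted p = 0.105). Ndufa4l2, known as a gene induced by low oxygen, was at 0.41 to 1.08 and 0.79 to 1.11 cRPKM (edgeR adjusted p = 0.109). Cox7a1 and Cox7b2 had at most 5 and 11 reads in a library and were not tested, and Cox8b and Atp5l-ps1 had 0 reads in all 8, where a count of 0 allows up to 3 reads. The summed level of 6 sperm and testis markers was 3.11 to 5.31 cRPKM in 2-cell libraries and 3.25 to 4.47 cRPKM in 1-cell libraries. That of 6 heart and skeletal muscle markers was 3.51 to 4.32 and 2.31 to 3.48 cRPKM. No marker of either list was at 0 in all libraries, and their part in these levels was not tested.

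**Figure D4:**
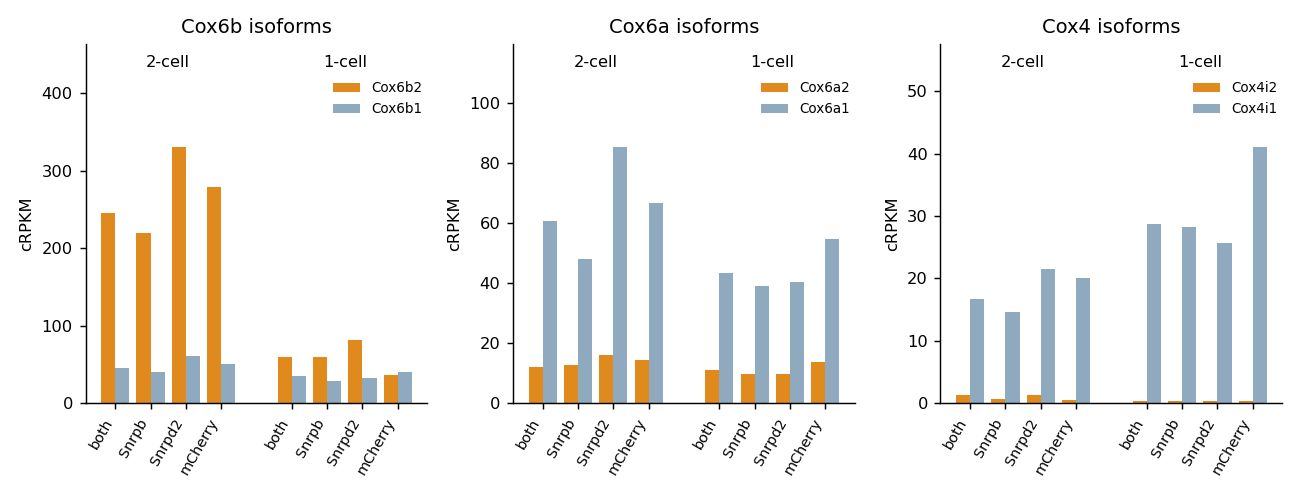
Levels (cRPKM) of 3 complex IV isoform pairs in each library, with the gene of few adult tissues in orange and its broad partner in blue-grey, and 2-cell libraries left of 1-cell libraries ("both" is Snrpb and Snrpd2). Cox6b2 is at 219.98 to 331.35 cRPKM in 2-cell and 35.75 to 81.67 cRPKM in 1-cell libraries, while Cox6a2 and Cox4i2 stay below their partners in all 8.

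In complex V the catalytic head split between its 2 main subunits. Atp5a1 was at 45.44, 46.63, 55.49 and 43.06 cRPKM in 2-cell embryos, against 179.78, 187.94, 182.52 and 199.94 cRPKM in 1-cell embryos (4.73-fold lower, edgeR adjusted p = 9.88e-08). Atp5b, its partner in the alpha and beta ring, was at 284.21, 260.47, 301.24 and 271.81 cRPKM in 2-cell embryos, against 269.73, 289.75, 305.17 and 272.29 cRPKM in 1-cell embryos. These overlapped, and the log2 change of -0.28 had an edgeR adjusted p of 0.0377 with TMM scaling, 0.0658 with DESeq2's size factors and 0.837 with library totals. The alpha and beta subunits are used in equal number in the enzyme, and as levels per kilobase Atp5b exceeded Atp5a1 in every library.

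The membrane c ring has 3 genes for 1 mature protein. Atp5g1 was 2.92-fold higher, at 14.20, 13.35, 20.41 and 14.23 cRPKM in 2-cell embryos, against 3.81, 4.05, 3.74 and 6.36 cRPKM in 1-cell embryos (edgeR adjusted p = 2.88e-05). Atp5g2 was 2.04-fold lower, at 17.7 ± 3.92 cRPKM in 2-cell embryos and 30.0 ± 6.06 cRPKM in 1-cell embryos (edgeR adjusted p = 0.000361). Atp5g3 was 1.27-fold higher, at 41.0 ± 2.68 and 27.1 ± 3.15 cRPKM (edgeR adjusted p = 0.0411), and was not called with length bins (log2 change 0.07, edgeR adjusted p = 0.598). The c ring genes together summed to 69.2 to 86.9 cRPKM in 2-cell embryos and 54.1 to 76.0 cRPKM in 1-cell embryos, which overlapped. Of the stalk that holds the head in place, Atp5o was 2.21-fold higher and Atp5j 1.85-fold higher. The Atp5o call was lost without the 2-cell or the 1-cell Snrpd2 library (adjusted p = 0.0625 and 0.0533), and with length bins (adjusted p = 0.0815).

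The mitochondrially encoded partners of these subunits were higher. Of 13 such genes 12 were analysed here, and 12 of 12 rose (median log2 change 1.42, against 0.15 for all genes). With DESeq2's size factors and library totals 12 of 12 rose too, and 11 of 12 with centring in length bins. mt-Nd1, a complex I subunit, averaged 823 ± 58.1 cRPKM at the 2-cell stage and 220 ± 40.2 cRPKM at the 1-cell stage (3.16-fold, edgeR adjusted p = 1.24e-06). mt-Co1, the catalytic subunit of complex IV, averaged 459 ± 46.7 and 133 ± 27.0 cRPKM (2.93-fold, edgeR adjusted p = 2.6e-06). mt-Nd3 had the smallest rise, 1.45-fold, and was higher in 3 of the 4 injections, where the other 11 were higher in all 4. The 12 genes summed to 7370 to 10000 cRPKM in 2-cell libraries and 2360 to 3630 cRPKM in 1-cell libraries. Nuclear copies of mitochondrial DNA share sequence with these genes, and how such reads were counted is not given in the sources used here.

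Other genes of the pathway were mixed as well, and their counts stand beside 38.1% of all genes higher and 32% lower. In a list of the tricarboxylic acid cycle, to which succinate dehydrogenase belongs, and of pyruvate dehydrogenase, 11 of 17 genes were lower and 4 higher. The 11 include the pyruvate dehydrogenase genes Pdha1, Pdhb and Dlat (2.56, 2.91 and 1.99-fold lower), which are not cycle enzymes. Suclg1 and Fh1, which act just before and just after succinate dehydrogenase, were 8.70 and 5.80-fold lower. At the same step as Suclg1, Sucla2 was 1.77-fold lower but Suclg2 was 2.38-fold higher, at 51.1 ± 2.3 cRPKM, against 18.6 ± 5.64 cRPKM in 1-cell embryos. Mdh2, which makes oxaloacetate, was 3.13-fold higher at 51.4 ± 4.33 cRPKM, against 13.8 ± 2.21 cRPKM in 1-cell embryos. Of complex I assembly factors outside the Ndufaf names, 6 of 9 were lower and 2 higher. Acad9 and Dmac1 were 8.11 and 4.75-fold lower, and Foxred1 was 5.71-fold higher. Assembly factors of complex II were lower in 3 of 4 and higher in none. Those of complex III were lower in 2 of 6 (Uqcc1 by 4.65-fold) and higher in 1, Uqcc3, by 14.0-fold. Those of complex IV were lower in 10 of 22 and higher in 9, with Lrpprc, which stabilises mitochondrial mRNA, 3.61-fold lower and Cox11, which delivers copper, 8.30-fold higher. Those of complex V were lower in 2 of 4 and higher in 1. Of 16 genes for cytochrome c and ubiquinone, 9 were lower and 6 higher, with cytochrome c itself, Cycs, 4.24-fold higher at 11.6 ± 1.32 cRPKM, against 2.28 ± 0.223 cRPKM in 1-cell embryos. Of 12 genes for mitochondrial DNA upkeep and transcription, 5 were lower and 3 higher, with Mterf4 13.5-fold lower and Polg2, the accessory subunit of the mitochondrial DNA polymerase, 3.86-fold higher. Of 10 carriers and coupling proteins 5 went each way. Protein import had 10 of 21 higher and 7 lower (47.6% and 33.3%), with the outer membrane import subunit gene Tomm5 59.6-fold higher.

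Of 12 factors known to act on genes of respiration, 4 were higher and 4 lower (33.3% each, near the shares over all genes). Gabpa, whose product binds the ETS motif, was at 51.38, 43.72, 59.44 and 39.71 cRPKM in 2-cell embryos, against 0.72, 0.39, 0.28 and 0.10 cRPKM in 1-cell embryos (117-fold higher, edgeR adjusted p = 7.16e-08). Yy1 was 27.4-fold higher, at 6.12 ± 0.993 cRPKM in 2-cell embryos and 0.193 ± 0.0900 cRPKM in 1-cell embryos (edgeR adjusted p = 3.28e-07). Nrf1 was 2.47-fold lower, at 49.4 ± 2.42 and 103 ± 13.8 cRPKM (edgeR adjusted p = 3.75e-06). The coactivator gene Ppargc1b was 3.03-fold lower.

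The promoters of the members were searched for the motifs of these factors in RefSeq windows of 250 bases before to 50 bases after a start (both strands). The 95 members had 81 windows for 76 genes, and the 16264 genes of the stage test had 15925 windows for 12586 genes. The NRF1 motif (the 10 capitals in the sites of Ndufa11 and Atp5g2) lay in 8.64% of the members' windows, against 1.7% of all windows. The ETS motif CCGGAAG lay in 22.2%, against 14.4%, the YY1 motif AAGATGGC in 13.6%, against 3.67%, and TATAAA in 9.88%, against 8.28%. Matches of different motifs were counted each on its own, also where they overlapped. Members higher at the 2-cell stage held the ETS motif in 6 of 25 windows, members lower in 3 of 25 and members not called in 9 of 28. Over all genes the order was the other way, with the motif in 11.5% of the windows of genes higher and 19.2% of those of genes lower. The YY1 motif lay in 3 of 25 windows of higher and 3 of 25 of lower members. These matches are descriptions of sequence, and starts used in the embryo were not measured.

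The same motif stood before genes that moved in opposite directions, as in 2 pairs of sites picked as examples. Capitals mark the motif, with 10 bases on each side, on the strand of the gene. Whether a motif bears on direction was not tested. Uqcr11 (chr10:80406871-80406897, minus strand) was 1.96-fold higher and Sdhd (chr9:50603879-50603905, minus strand) 5.74-fold lower at the 2-cell stage, and both hold the ETS motif, in opposite orientation. The rise of Uqcr11 was not called with length bins (edgeR adjusted p = 0.0632). Ndufa11 (chr17:56717692-56717721, plus strand) was 1.84-fold higher and Atp5g2 (chr15:102671070-102671099, minus strand) 2.04-fold lower, and both hold the NRF1 motif.
Uqcr11: tctctcctccCCGGAAGtagatgtcaa
Sdhd: cgtctcctgcCTTCCGGttcacgcttc
Ndufa11: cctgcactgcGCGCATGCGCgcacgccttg
Atp5g2: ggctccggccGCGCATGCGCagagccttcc
Atp5j is a neighbour of Gabpa. One of its 2 RefSeq windows, chr16:84834927-84835226 on the minus strand, shares 247 bases with the window of Gabpa, chr16:84834874-84835173 on the plus strand, so that the 2 genes start head to head. Atp5j was 1.85-fold higher at the 2-cell stage, at 11.16, 14.26, 11.61 and 11.21 cRPKM in 2-cell embryos, against 5.25, 4.15, 5.50 and 7.16 cRPKM in 1-cell embryos, beside the 117-fold rise of Gabpa.

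The Sm injections were compared with mCherry next. Over both stages no member was called for any injection with edgeR, DESeq2 or limma, and of all 16264 genes edgeR called 1 (0.00615%) for Snrpd2 and 0% for the others. At an unadjusted p under 0.05 edgeR gave 6 of 91 members for both mRNAs (3.11% of all genes), 7 for Snrpb (3.58%) and 3 for Snrpd2 (3.06%). These counts rested on single libraries. Leaving out 1 library moved the member count of each injection by over 1.5 times, upward for some libraries and downward for others. The counts over all genes also rose or fell with the library left out. Each such fit leaves 1 library of an injection, so its counts are not given. The member medians were -0.21, -0.25 and -0.12 on the log2 scale, against -0.01, 0.00 and 0.00 for all genes, and -0.08, -0.12 and -0.05 with length bins. With 1 library left out the median lay between -0.3 and -0.1 for both mRNAs and between -0.37 and -0.13 for Snrpb. For Snrpd2 the median turned to 0.18 without the 1-cell Snrpd2 library (68 members above 0, 24 below) and to 0.07 without 1-cell mCherry. The 3 comparisons share the mCherry libraries. The smallest p-values were those of Sdhd and Ndufv2 for both mRNAs (log2 changes -0.57 and -0.54), Ndufs4 and Sdhd for Snrpb (-0.69 and -0.53), and Sdhc and Cox6b2 for Snrpd2 (-0.44 and 0.64), with adjusted p from 0.947 to 0.998.

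At the 1-cell stage, where the 3 Sm-injected libraries were set against the single mCherry library, most members were lower in the injected embryos. Of 92 members tested, 72 lay below 0 and 20 above, with a median log2 difference of -0.28, against 0.00 for all 16867 genes. No member was called with edgeR (0% of all genes) or limma. At an unadjusted p under 0.05 there were 17 members, 15.5% of all genes being past it. Of these members 15 were lower and 2 higher, against 6.31% of all genes lower and 9.21% higher. Without the 1-cell Snrpd2 library there were 10, 8 lower and 2 higher, against 1963 of 16803 genes. Without the 2-cell Snrpd2 library there were 23, against 3209 of 16789 genes. In cRPKM all 3 injected libraries lay below mCherry for 65 of 91 members, against 36% of genes, and above it for 7 of 91, against 25.8% of genes. DESeq2 called 4 members, the lower Ndufa8, Ndufaf1 and Sdhc and the higher Cox6b2 (adjusted p 0.0129 to 0.0375), and 3.17% of all genes (2.49% higher and 0.676% lower).

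Ndufaf1 showed the largest of these differences, at 0.13, 0.12 and 0.07 cRPKM in injected 1-cell embryos, against 0.50 cRPKM in mCherry 1-cell embryos (log2 difference -2.20 ± 0.50 SE, edgeR adjusted p = 0.147). It rested on 5 to 10 reads in the injected libraries and 39 in mCherry. Cox6b2 was at 59.20, 59.75 and 81.67 cRPKM in injected 1-cell embryos, against 35.75 cRPKM in mCherry 1-cell embryos (log2 difference 0.94 ± 0.25 SE, edgeR adjusted p = 0.161). Cox8a was likewise higher in all 3 injected libraries, at 181.06, 180.54 and 209.50 cRPKM, against 128.61 cRPKM in mCherry (edgeR adjusted p = 0.218). These 2 were the only members higher at an unadjusted p under 0.05, and both also rose between the stages. Ndufa8 was at 38.57, 32.46 and 32.20 cRPKM in injected 1-cell embryos, against 59.00 cRPKM in mCherry 1-cell embryos (log2 difference -0.75 ± 0.20 SE, edgeR adjusted p = 0.159). Sdhc was at 17.49, 14.87 and 16.57 cRPKM, against 24.23 cRPKM (edgeR adjusted p = 0.171).

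By complex, the 1-cell medians were -0.48 for the complex I core (7 of 7 below 0), -0.41 for the Ndufaf factors (8 of 8), -0.39 for complex II (3 of 4), -0.27 for complexes IV and V and for complex I subunits as a whole, and -0.25 for complex III. The mitochondrially encoded genes lay on the other side, with 10 of 12 above 0 and a median of 0.29, and none was called. The difference between injected and mCherry 1-cell libraries ran with gene length. Members had a median length of 0.826 kb, against 2.59 kb for all genes tested, and 69 of 92 fell in the shortest of 5 equal length classes. Over all genes the 1-cell median difference ran through -0.15, -0.09, -0.01, 0.06 and 0.16 from the shortest to the longest class. Members in the shortest class had a median of -0.29. After centring each library within bins of length the median of all members was -0.16. At an unadjusted p under 0.05 edgeR then gave 13 of 92 members, against 2742 of 16867 genes. The summed level of the 10 cumulus and granulosa markers was 28.3 to 38.6 cRPKM in the injected 1-cell libraries and 18.8 cRPKM in mCherry. Of 9 tested, 8 had a log2 difference above 0, against 8682 of 16867 genes, and none was called. The marker list was chosen with earlier results of these data known, so this count is no separate check. No marker was at 0 in all libraries. The part of these markers in the result was not tested.

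**Figure D5:**
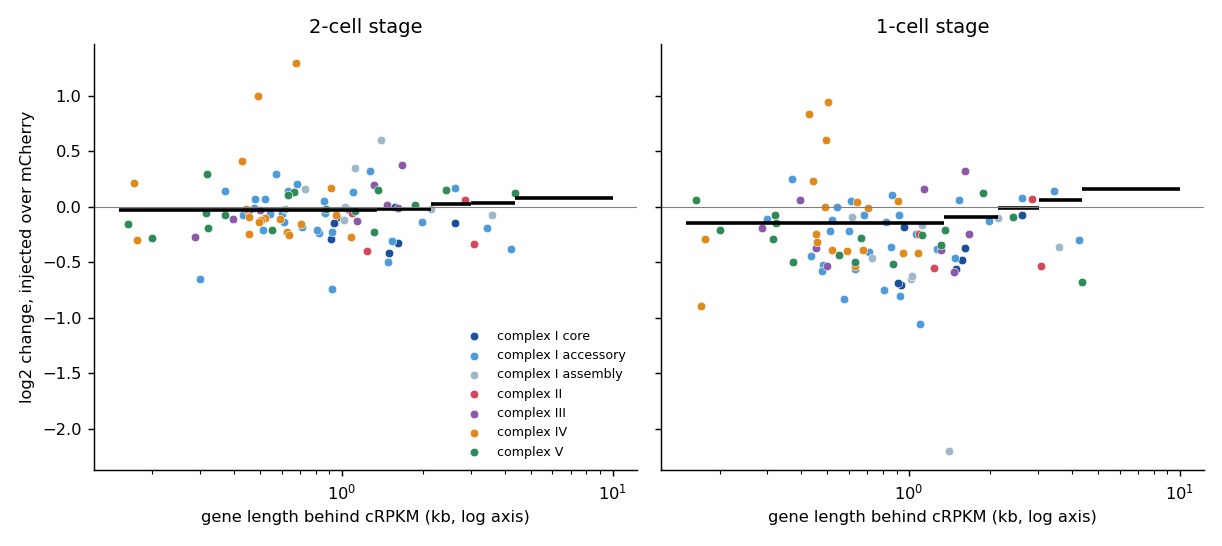
Log2 difference of each tested member except Atp5s, Sm-injected over mCherry (vertical axis), against the gene length used for cRPKM (kb, log axis), at the 2-cell stage (left) and the 1-cell stage (right). Black bars are medians of all genes in 5 length classes, which at the 1-cell stage run through -0.15, -0.09, -0.01, 0.06 and 0.16, and most members of the right panel lie below 0.

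At the 2-cell stage the members lay closer to the control. Their median log2 difference was -0.07, against 0.02 for all genes, with 61 below 0 and 31 above. None was called with edgeR, DESeq2 or limma, and at an unadjusted p under 0.05 edgeR gave 0 members and 3.78% of all genes. All 3 injected libraries lay below mCherry for 12 of 91 members, against 17.9% of genes, and above it for 13, against 27.4%. Ndufv2 had the smallest p, at 10.38, 10.53 and 13.04 cRPKM in injected 2-cell embryos, against 14.63 cRPKM in mCherry 2-cell embryos (log2 difference -0.42 ± 0.19 SE, edgeR adjusted p = 1.0). Uqcrc2 followed, at 11.94, 11.61 and 15.45 cRPKM in injected 2-cell embryos, against 9.73 cRPKM in mCherry (0.37 ± 0.18 SE, adjusted p = 1.0).

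The 3 injected 2-cell libraries differed among themselves. In ratios of single libraries, taken where one of both had 50 reads or more, the median member was at -0.20 for both mRNAs and -0.28 for Snrpb, but at 0.14 for Snrpd2, where 66 of 87 members lay above mCherry. Without the 2-cell Snrpd2 library the 2-cell median was -0.21 in place of -0.07. There 8 members and 1121 of 16789 genes had an edgeR unadjusted p under 0.05, and no member was called. Without the 2-cell Snrpb library the 2-cell median was 0.02, with 49 members above 0 and 42 below. The Snrpd2 library was also the 2-cell library with the highest summed level, 3610 cRPKM, against 3140 cRPKM in mCherry. Ratios of at least 2-fold were seen for 5 members. Cyc1, Ndufa3 and Ndufb4 were lower in the 2-cell Snrpb library (1.73% of all genes lower, 2.65% higher). Ndufb7 was lower and Cox6b2 higher in the 1-cell Snrpd2 library (1.51% of all genes lower, 3.65% higher). The other libraries had none, against 1.36% of all genes lower and 2.15% higher for 2-cell both mRNAs, 1.55% and 2.76% for 2-cell Snrpd2, 0.891% and 3.26% for 1-cell both mRNAs, and 1.29% and 3.37% for 1-cell Snrpb. Cyc1 had 205 reads in the 2-cell Snrpb library and 465 in 2-cell mCherry (ratio 0.458, 95% interval 0.387 to 0.541). These ratios describe 2 libraries and have no replicate check.

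Whether the effect of injection depended on stage was tested directly. No member was called with edgeR (0% of all genes), DESeq2 or limma, and 5 of 92 had an unadjusted p under 0.05, against 9.77% of all genes. The median of the 2-cell minus the 1-cell effect was 0.21, against 0.00 for all genes, and 0.04 without the 2-cell Snrpd2 library. Ndufaf1 had the largest difference (log2 2.80 ± 0.69 SE, edgeR adjusted p = 0.381), with injected below mCherry at the 1-cell stage and above it at the 2-cell stage. Cox6b2 had the next smallest p (log2 -1.05 ± 0.33 SE, edgeR adjusted p = 0.397).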

How the data were processed

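Per the labels, polyadenylated RNA of whole embryos was extracted with the Qiagen RNeasy Micro kit, made into libraries with the SMARTer Stranded kit and sequenced on a HiSeq2500. The authors deposited, per gene, read counts and cRPKM, an RPKM value equal to the count over a fixed length and the library total (within 0.165% for 2662 genes). Reads were placed on mm9, per the submitters' processing notes. For aligner, annotation and strand use the sources used here give nothing. Symbols came from GENCODE vM21 (20759 of 22667 identifiers), and 21553 identifiers had values.

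Counts were tested with edgeR 4.0.16 (quasi-likelihood, TMM, filterByExpr) in R 4.3.3. One model had injection and stage (16264 genes, 3 residual degrees of freedom). The other had stage by Sm-injected or mCherry (16867 genes, 4 residual degrees of freedom), where the single mCherry library was taken to be as variable as the others. P-values measure spread between differently injected pools, which may be technical. Alternatives were DESeq2 1.42.0, limma 3.58.1 on log2(cRPKM + 0.1) or log2(cRPKM + 1), other scalings, no filter, no injection term and leaving out each library. The code was tested on simulated data. Intervals (95%, conditional binomial) and the floor of 3 reads cover counting error only, as reads had no molecular identifiers. Named genes were, per complex, up to 2 called genes with the largest change each way in all 4 injections and the most abundant one, isoforms with their partners, for injection the 2 smallest p-values, and in other lists up to 2 called genes each way. Members and lists were chosen with earlier results of these data known. Other genes were named after their values were seen. Coa1, Pet100, Pet117 and Tomm20 were listed but not analysed here. The promoter tables held windows for 76 of the 95 members. One gene is counted in the groups but not reported singly here.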

Additional observations from a re-analysis of the deposited data

How the results depend on the processing

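The count of members higher at the 2-cell stage was 26, and 41 with limma at either pseudocount (45.9% and 44.9% of all genes, against 38.1%). The 32 lower members moved by less than 1.5 times under every alternative run. Scaling by library totals put the median of all genes at 0.413, against 0.154 with TMM and 0.194 with DESeq2's size factors, and called 44.7% of genes higher and 25.6% lower. It called 37 members higher and 30 lower, which held 26 of the 26 and 30 of the 32 TMM calls.

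The median log2 change of all members, -0.07, was 0.19 with library totals, 0.18 and 0.17 with limma at pseudocounts 0.1 and 1, and -0.31 with centring in 20 bins of gene length, chosen after seeing the data. For the complex I core it was -0.96 with limma at pseudocount 1, for Ndufaf factors 0.04 with library totals and both limma fits, and for complex II -1.93, -1.92 and -1.80. For complex V it was 0.39 with library totals and with limma at pseudocount 0.1, and -0.25 with length bins. Complex IV was at -0.22 with length bins, and Cox6a2 turned to -0.44. The causes were not tested.

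DESeq2 called 4 members for Sm injection at the 1-cell stage, where edgeR called 0. Of 432 results for single genes under the alternatives, 415 kept their direction and side of the threshold, 12 lost the call, 4 gained it and 1 turned. Leaving out the mCherry library of a stage gives no injection contrast there. No paired analysis was possible because each condition had 1 library, as far as replicate numbers go. The stage test itself compared stages within each injection. Without the injection term 27 members were higher and 33 lower, against 5934 and 5473 of 15400 genes. Leaving out 1 library put the stage median of all members between -0.18 and 0.01.

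Each condition was 1 pool, so no value has a replicate of its own condition. Low genes such as Cox7c and Ndufaf1 rest on few reads at the 1-cell stage. Levels are relative to all counted reads, so a change in total RNA per embryo cannot be seen.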
